A study of Mus musculus with 8 samples.

Results

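The genes described here are 34 members of the p53 pathway and of the mitochondrial cell death machinery, measured by RNA sequencing in cultured mouse cortical neurons with and without the histone variant H2BE. They were taken by symbol from a table of 26229 genes, and fall into p53 with its inhibitors and 10 p53 targets, 13 genes of the Bcl2 family, and 8 caspases and caspase regulators. Wild-type neurons were compared with neurons labelled H2BE-KO/mCherry-KI, in which the gene of H2BE, a variant of the core histone H2B, was knocked out by an mCherry knock-in. Both groups came from embryos at E16.5, were kept in culture for 12 days, and had 4 biological replicates each. The labels give neither strain nor sex, nor whether embryos were pooled or littermates shared a genotype, and no treatment.

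p53 is a transcription factor that is held low by Mdm2 and Mdm4 and, when damage or stress releases it, turns on genes of cell cycle arrest, repair, antioxidant defence and death. Death through mitochondria is decided within the Bcl2 family: BH3-only proteins block the survival proteins or activate the pore formers, cytochrome c leaves the mitochondria, and Apaf1 assembles with it into the apoptosome that activates Casp9 and then the executioner caspases. Young neurons are sensitive to this route, and maturing neurons are known to restrain it, in part by lowering Apaf1.

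All values come from the authors' deposited table of 1 comparison between the genotypes. Levels are mean normalized counts, averaged across the 8 libraries, and changes are log2 ratios of knockout to wild type with their standard error (SE). A gene was called at an adjusted p under 0.05. The table names no direction, so the sign was taken from the targeted gene, H2bc21. In the authors' deposited table it changed by log2 -3.45 (SE 0.19, adjusted p = 4.49e-68) when read as lower in the knockout, which leaves 9.12% of the wild-type level. How much of the gene mCherry replaced is not stated. If that reading were wrong, every rise and fall below would swap. Values per library were not analysed here, so the SE is the only value that reflects the spread between replicates, and it does so indirectly. Whether the groups overlapped is not known.

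Of the 34 genes, 33 were tested. The authors' deposited table gives 6 that rose in the knockout (Apaf1, Bok, Casp2, Trp53inp1, Bbc3 and Sesn1), 3 that fell (Bcl2l2, Cdkn1a and Zmat3), while 24 were not called. That is 27.3% called, against 21.8% of all 18085 tested genes, of which 11.0% rose and 10.9% fell. Members were mostly well expressed: 31 of the 33 had a mean normalized count of at least 100, and all 9 calls lay among them, whereas 28.8% of the 11537 tested genes at that count were called. The members' share is thus close to the background. Their median log2 fold change was 0.05, against -0.02 for all tested genes, and the median size of a change, sign ignored, was 0.20, against 0.33 for all tested genes and 0.24 for those with a mean count of at least 100.

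The number of calls depends on the null distribution that the Wald statistic is held against. The deposited p uses the normal distribution. With a t distribution (6 degrees of freedom), or with a normal distribution widened 1.96 times to the spread of the statistics of all genes, 0 of the 33 members passed after adjustment. Few genes of any kind did: 0.00553% of all 18085 tested genes passed with the t distribution and 0.409% with the widened normal. At an unadjusted p under 0.05, 13 members passed with the deposited test, 9 with the t distribution (the same 9 that were called) and 4 with the widened normal. The share of all genes at that unadjusted p was not counted, so these counts have no background to be read against. Both alternatives reuse the deposited statistic of each gene, so which members lead was largely fixed by the deposited order. Removing the smooth trend over exon length and base composition kept all 9 calls.

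**Figure D1:**
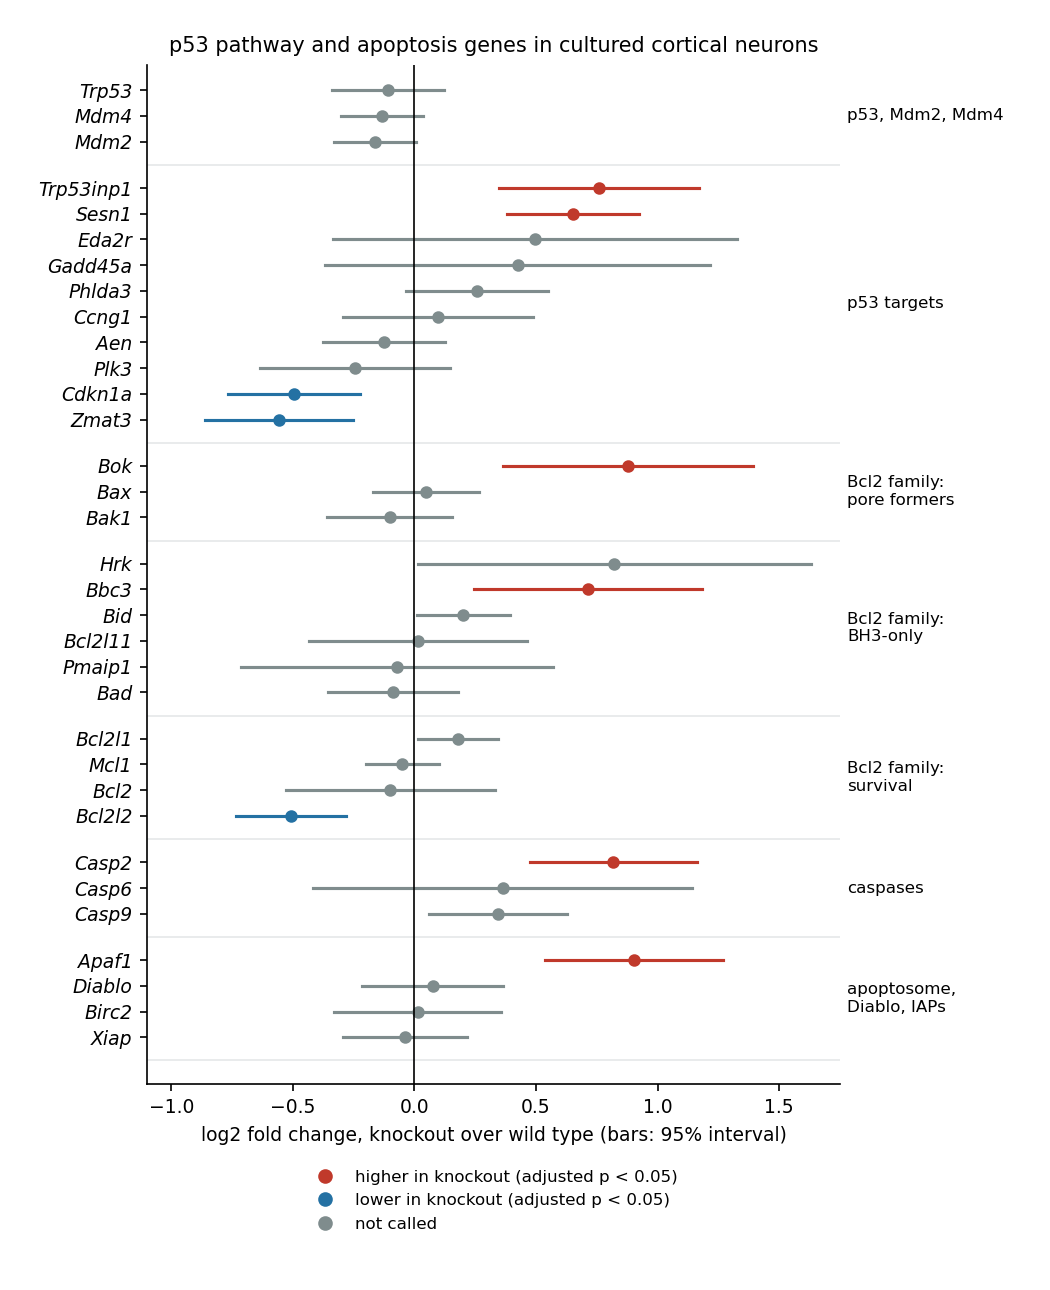
Log2 fold change of each of the 33 tested members, knockout over wild type (x axis), with its 95% interval as a bar, grouped by role. Red points are the 6 called higher, blue points the 3 called lower, and grey points the 24 not called. Every role except p53 with its inhibitors holds at least 1 call, and p53 targets hold calls on both sides of 0.

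The genes of p53 itself and of its inhibitors were not called. Trp53, the gene of p53, stood at log2 -0.11 (SE 0.12, 95% interval -0.34 to 0.12) in the authors' deposited table, with a mean normalized count of 706. Mdm2, the ubiquitin ligase gene that p53 itself turns on, stood at -0.16 (SE 0.09, adjusted p = 0.166). Mdm4, which binds and blocks p53, stood at -0.13 (SE 0.09, adjusted p = 0.274). All 3 values lay below 0, and all 3 intervals lay within 0.5 of it on the log2 scale. These are transcript levels; p53 protein was not measured.

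The 10 p53 targets did not move as 1 group. By the authors' deposited table there were 2 that rose, 2 that fell and 6 that were not called. Sesn1 encodes sestrin 1, a stress protein that restrains mTORC1 and supports antioxidant defence. Its approximate level, as implied by the mean count and the fold change for groups of equal size, went from 871 in wild type to 1369 in the knockout, 1.57-fold higher (log2 0.65, SE 0.14, adjusted p = 5.94e-05). Trp53inp1, whose product takes part in p53-dependent death and in autophagy, went from 571 to 966, 1.69-fold higher (log2 0.76, SE 0.21, adjusted p = 0.00288). These 2 genes rose by a like amount, and their intervals overlap.

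Cdkn1a and Zmat3 went the other way. Cdkn1a encodes p21, the inhibitor of cyclin-dependent kinases and the best known p53 target. Its implied level fell from 5234 to 3712 in the authors' deposited table, 1.41-fold lower (log2 -0.50, SE 0.14, adjusted p = 0.00327). Zmat3, a gene of an RNA-binding zinc finger protein, fell from 7125 to 4847, 1.47-fold lower (log2 -0.56, SE 0.16, adjusted p = 0.0033). Before division by length, these were the 2 highest mean normalized counts of all members. In mm10 the 4 genes are annotated as Sesn1, chr10:41809935-41908424 (plus strand), Trp53inp1, chr4:11156431-11174379 (plus), Cdkn1a, chr17:29090976-29100727 (plus), and Zmat3, chr3:32334792-32366014 (minus).

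The 6 remaining targets had wide or small values. Ccng1, the cyclin G1 gene, stood at 0.10 (SE 0.20), and Aen, an apoptosis-enhancing nuclease gene, at -0.13 (SE 0.13), per the authors' deposited table. Phlda3, which encodes an inhibitor of Akt, stood at 0.26 (SE 0.15, adjusted p = 0.219). Plk3, a stress-responsive polo-like kinase gene, stood at -0.24 (SE 0.20). Gadd45a, a growth arrest and DNA damage gene, and Eda2r, a receptor gene of the TNF receptor superfamily, were the 2 of lowest count, at 93.9 and 106. Their values of 0.42 (SE 0.40) and 0.50 (SE 0.42) have 95% intervals of -0.37 to 1.22 and -0.33 to 1.33, so changes of the size seen in Sesn1 could not be told from none.

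RefSeq promoter windows (GRCm38.p6, 250 bases before to 50 after a start) were found for 31 of the 34 members, 44 windows in all. The p53 half-site, a 10-base consensus that is its own reverse complement, was searched without mismatches. It occurred in 10 of the 44 windows (22.7%), from 9 genes, against 8.36% of all 32851 windows and 6.64% of the 11686 windows of tested genes with a mean count of at least 100. Most of these genes are p53 targets or p53 itself, which is how the members were chosen. They are shown because they set 1 called riser and 1 called faller beside targets that were not called, with the half-site in capitals and 10 bases on either side.
Sesn1 (called higher), chr10:41887256-41887285, plus strand: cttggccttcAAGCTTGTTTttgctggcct
Cdkn1a (called lower), chr17:29090896-29090925, plus strand: tcctgggtggGGACTAGCTTtctggccttc
Cdkn1a (called lower), chr17:29090918-29090947, plus strand: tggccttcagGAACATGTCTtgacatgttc
Mdm2 (not called), chr10:117710925-117710954, minus strand: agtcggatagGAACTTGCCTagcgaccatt
Ccng1 (not called), chr11:40755452-40755481, minus strand: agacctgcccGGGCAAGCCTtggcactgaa
Bax (not called), chr7:45467080-45467109, minus strand: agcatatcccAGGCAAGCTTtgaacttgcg
Gadd45a (not called), chr6:67037428-67037457, minus strand: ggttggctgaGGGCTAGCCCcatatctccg
Aen (not called), chr7:78895927-78895956, plus strand: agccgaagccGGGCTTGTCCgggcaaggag

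The half-sites of Cdkn1a begin 73 and 51 bases before the first of its 2 RefSeq starts, and that of Sesn1 173 bases before the second of its 2. Trp53 and Birc2 held 1 each. A match is a string of letters and not a site shown to be bound. Genes with a half-site in the window were called higher (Sesn1), called lower (Cdkn1a) and not called (Mdm2, Ccng1, Bax, Gadd45a, Aen, Trp53 and Birc2). The called targets Trp53inp1 and Zmat3 had no window, and sites outside the windows were not searched. With 1 gene called in each direction, whether a match goes with a direction could not be told.

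Among the pore formers of the Bcl2 family, only Bok was called. Bok, a relative of Bax and Bak1 whose pore-forming activity depends less on other family members, went from an implied 239 to 439 in the authors' deposited table, 1.84-fold higher (log2 0.88, SE 0.26, adjusted p = 0.00676). Its position is chr1:93685660-93695764 (plus strand). Bax, the main pore former of neurons, stood at 0.05 (SE 0.11, 95% interval -0.17 to 0.26) and Bak1 at -0.10 (SE 0.13). Per kilobase of exon, Bax was the highest of the 3, at a mean normalized count of 1292, against 306 for Bak1 and 184 for Bok. The pore former that rose was thus the least abundant of the 3 per length.

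BH3-only genes start the pathway by neutralizing survival proteins. Bbc3, the gene of Puma and a direct p53 target, was the one of 6 that was called. It went from an implied 464 to 761 in the authors' deposited table, 1.64-fold higher (log2 0.71, SE 0.24, adjusted p = 0.0182) at chr7:16308393-16318205 (plus strand). Hrk, a BH3-only gene of neurons induced on loss of trophic support, had a larger value of 0.82 but a wide error (SE 0.41, 95% interval 0.01 to 1.63), and was not called (adjusted p = 0.144). Bid, which links death receptors to mitochondria, stood at 0.20 (SE 0.10, adjusted p = 0.128).

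The other 3 BH3-only genes lay near 0 in the authors' deposited table. Bcl2l11, the gene of Bim, stood at 0.01 (SE 0.23), Pmaip1, the gene of Noxa and also a p53 target, at -0.07 (SE 0.33), and Bad, which is controlled by phosphorylation, at -0.09 (SE 0.14). The interval of Pmaip1 runs from -0.72 to 0.57, and so holds changes as large as the fall of Cdkn1a. The 2 p53 targets of this class thus had different values, with Bbc3 called and Pmaip1 not, but the difference between them was not tested.

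Among survival genes Bcl2l2 fell. Bcl2l2 encodes Bcl-w, a survival protein of neurons and their axons. Its implied level went from 4661 to 3279 in the authors' deposited table, 1.42-fold lower (log2 -0.51, SE 0.12, adjusted p = 1.85e-04). Its position is chr14:54883377-54888234 (plus strand). A readthrough gene, Gm20521, joins it to the next gene, Pabpn1, and shares 594 bases, 13.3% of the exon length of Bcl2l2, so its reads may be divided between them. The table gives the symbol Bcl2l2 to a second row as well, whose identifier GENCODE names Pabpn1. That row stood at -0.08 (SE 0.25) and was not counted as a member.

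The other survival genes were not called. Bcl2l1, the gene of Bcl-xL and the main survival gene of neurons, stood at 0.18 (SE 0.08, adjusted p = 0.112) in the authors' deposited table. Mcl1 stood at -0.05 (SE 0.08, 95% interval -0.20 to 0.10), the smallest error of all members. Bcl2 itself stood at -0.10 (SE 0.22), with a 95% interval of -0.53 to 0.33 that holds a fall as large as that of Bcl2l2. Per kilobase of exon Mcl1 (1226), Bcl2l2 (890) and Bcl2l1 (869) were alike in level, and Bcl2 was far lower at 86.3. Counted as a family, 2 of 13 genes rose, 1 fell and 10 were not called, with a median log2 fold change of 0.01.

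**Figure D2:**
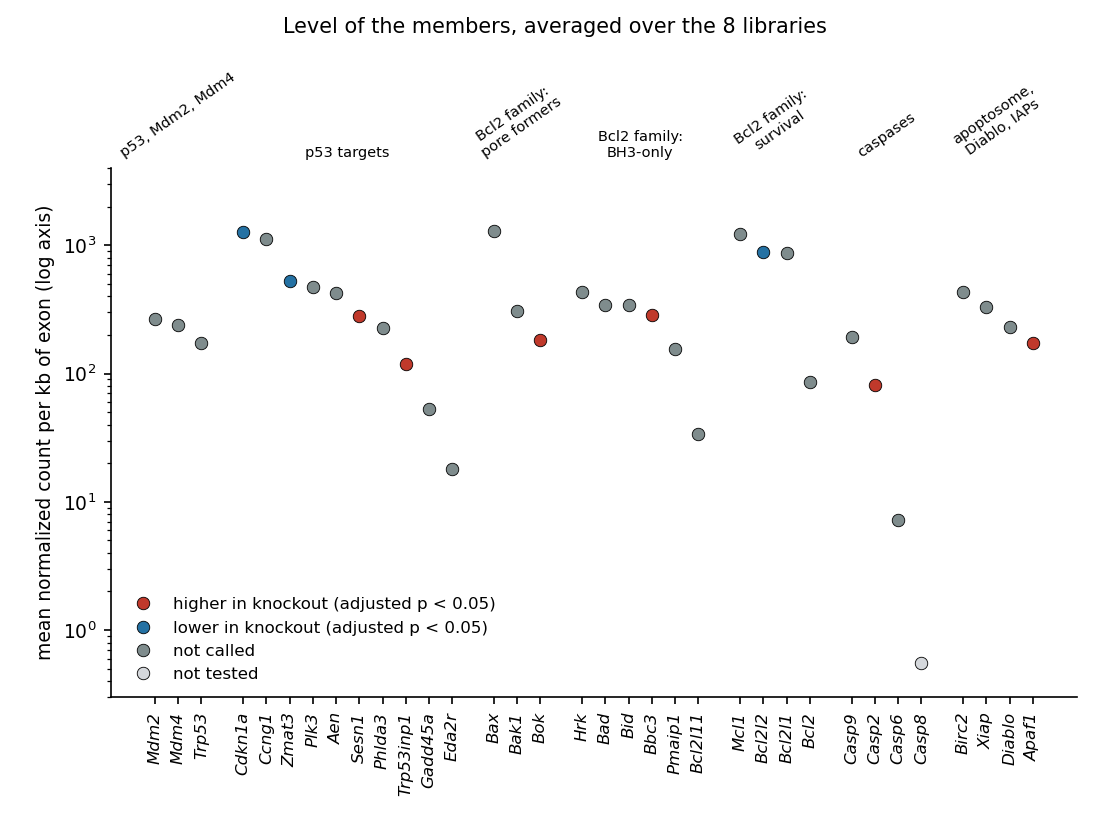
Mean normalized count per kilobase of exon (log axis), averaged over all 8 libraries, for each of the 34 members grouped by role, coloured by call. Bax (1292), Cdkn1a (1259), Mcl1 (1226) and Ccng1 (1114) lie highest, and Casp6 (7.19) and Casp8 (0.557) lowest. Averages over both genotypes have no error bar here, since values per library were not used.

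Initiator caspases become active once an adaptor brings them together. Casp2, the initiator caspase that the PIDDosome activates, went from an implied 416 to 732 in the authors' deposited table, 1.76-fold higher (log2 0.82, SE 0.18, adjusted p = 6.90e-05). Its position is chr6:42264985-42282508 (plus strand). Casp9, the initiator caspase of the apoptosome, stood at 0.34 (SE 0.15, 95% interval 0.06 to 0.63, adjusted p = 0.0728). Casp6, which cleaves axonal and nuclear proteins, stood at 0.36 (SE 0.40) at a mean count of 40.2. Casp8, the initiator of death receptors, had a mean count of 1.61 and no adjusted p, and was not tested. All 3 tested caspases lay above 0, and 1 was called.

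Apaf1 had the smallest adjusted p of all members. Apaf1, the scaffold of the apoptosome, went from an implied 1090 to 2038 in the authors' deposited table, 1.87-fold higher (log2 0.90, SE 0.19, 95% interval 0.54 to 1.27, adjusted p = 3.15e-05). Its position is chr10:90989311-91082770 (minus strand). The regulators that act after it lay near 0. Diablo, which relieves the block by inhibitors of apoptosis, stood at 0.07 (SE 0.15), Xiap, the inhibitor that binds caspases directly, at -0.04 (SE 0.13), and Birc2, a ubiquitin ligase of the same family, at 0.01 (SE 0.17). The intervals of these 3 lay within 0.5 of 0.

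The sequence just before Apaf1 is shown because this gene had the clearest rise. It is the 120 bases just before the GENCODE gene (chr10:91082771-91082890, minus strand, GRCm38.p6), with the GC box GGGCGG, searched on both strands, in capitals.
Apaf1: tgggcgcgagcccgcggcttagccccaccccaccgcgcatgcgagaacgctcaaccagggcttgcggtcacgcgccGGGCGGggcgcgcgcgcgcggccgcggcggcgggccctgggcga
The stretch holds 24 CpG dinucleotides and 1 GC box. GC boxes were found in 30 of the 44 member windows (68.2%), against 35.7% of all windows and 63.6% of those of tested genes with a mean count of at least 100. The promoter window of Apaf1 held no p53 half-site without mismatches.

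The E2F motif TTCCCGC, chosen after values were seen and searched on both strands, was found for 2 members, Casp2 and Bbc3. That is 2 of 44 windows (4.55%), against 4.6% of all windows and 8.19% of those of tested genes with a mean count of at least 100. Both genes were called higher, but whether the motif goes with the calls was not tested. The motif is in capitals, as it reads on the strand of the gene.
Casp2, chr6:42264829-42264855, plus strand: tgcggtttccGCGGGAAtcgatagcca
Casp2, chr6:42264879-42264905, plus strand: cctcgctcttTTCCCGCcccttcccgt
Bbc3, chr7:16310013-16310039, plus strand: ggccaggcggGCGGGAAggaagcacct
The FoxO motif TTGTTTAC, searched in the same way, was found for 1 member, Bbc3, in 1 of 44 windows (2.27%), against 1.23% of all windows and 0.736% of the windows of tested genes with a mean count of at least 100.
Bbc3, chr7:16310083-16310110, plus strand: tctggcgggtTTGTTTACaaacaatggg

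The called members also differed in level. The 6 that rose had mean normalized counts from 339 to 1564 and the 3 that fell from 3970 to 5986, as the plot of level against change shows. The risers changed by log2 0.65 to 0.90 and the fallers by -0.56 to -0.50.

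**Figure D3:**
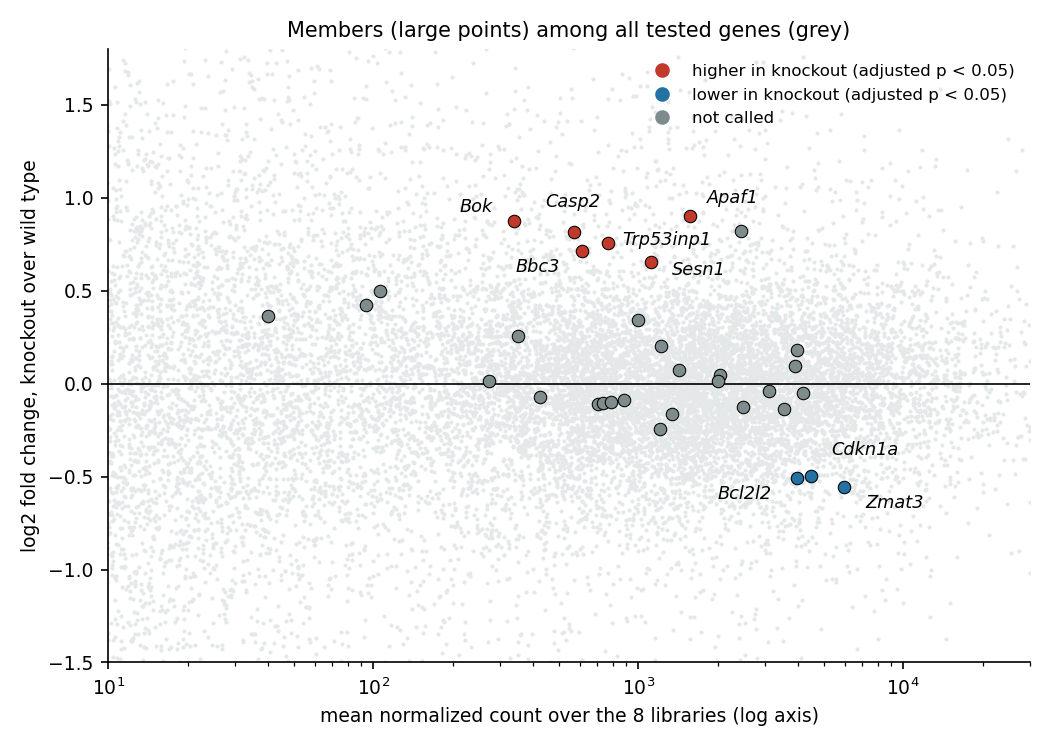
Log2 fold change, knockout over wild type (y axis), against mean normalized count over the 8 libraries (log x axis) for the 33 tested members (large points) and for the other tested genes within the range of the axes (light grey). The 6 risers (red) lie between 339 and 1564 counts and the 3 fallers (blue) between 3970 and 5986.

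Of the 24 members that were tested and not called, 15 had a 95% interval that lay wholly within 0.5 of 0 on the log2 scale. Of the 24, 4 had an unadjusted p under 0.05 and did not pass the adjustment: Bcl2l1 and Bid, whose intervals lay within that range, and Casp9 and Hrk, whose intervals did not. All 4 of these lay above 0. The intervals of Eda2r, Gadd45a, Casp6 and Hrk hold a rise as large as that of Sesn1, which was called. Those of Pmaip1, Plk3 (-0.63 to 0.15) and Bcl2 (-0.53 to 0.33) hold a fall as large as that of Cdkn1a, also called. Those of Casp9 (0.06 to 0.63) and Phlda3 (-0.04 to 0.55) reach past 0.5.

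Other genes of the same pathways were counted from 5 lists of 110 genes, of which 99 were tested. By the authors' deposited table there were 10 that rose, 6 that fell and 83 not called, or 16.2% called, below the 21.8% of all tested genes, with a median log2 fold change of -0.00604. Among 34 tested genes of the other p53 targets, 4 rose and 1 fell. Rprm, the gene of reprimo, a p53 target linked to arrest in the cell cycle, rose 3.32-fold (log2 1.73, SE 0.23, adjusted p = 1.10e-11). Whether p53 or a shift in cell types had a part in its rise was not tested. Dyrk3, a kinase gene, rose 2.02-fold (log2 1.02, SE 0.22), Ankra2 1.39-fold, and Pidd1, the scaffold of the complex that activates Casp2, 1.62-fold (log2 0.70, SE 0.25, adjusted p = 0.0268). Pidd1 lost its call once the length and GC trend was removed (adjusted p = 0.0531). Ercc5, a nuclease gene of excision repair, fell to -0.32. With the 10 member targets, 6 of 44 tested p53 targets rose, 3 fell and 35 were not called. That is 20.5% called, against 21.8% of all tested genes. This count leaves out Bax, Bbc3, Pmaip1, Mdm2 and Apaf1, which were grouped by other roles. Adding them to the 10 member targets alone, and not to the 44, gives 15 genes, of which 4 rose, 2 fell and 9 were not called. That is 40% called, against 21.8% of all tested genes and 28.8% of those with a mean count of at least 100. Of the 15, 14 had such a count.

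Several well-known p53 targets outside the member list lay near 0 or were scarce in the authors' deposited table. Plk2, which also answers to neuronal activity, stood at -0.05 (SE 0.09), Ei24 at -0.01 (SE 0.10), Btg2 at -0.03 (SE 0.25), Ppm1d, the phosphatase that shuts p53 off, at 0.04 (SE 0.15), and Sesn2, the paralog of Sesn1, at -0.23 (SE 0.18). Gdf15 and Fas, which damage induces in many cells, had mean counts of 3.72 and 13.4 and were not called. None of these was called, and the intervals of Plk2, Ei24 and Ppm1d lay within 0.5 of 0. Other uncalled targets lay farther out. Of the 29 uncalled genes in this list, 3 had an unadjusted Wald p under 0.05: Trp53i11 at 1.23 (SE 0.53), Ddb2 at 0.46 (SE 0.19) and Fdxr at -0.30 (SE 0.15).

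In the p53 family and its upstream regulators 2 of 20 rose and 1 fell in the authors' deposited table. Trp73, a p53 relative that also marks Cajal-Retzius cells of the cortex, rose 4.47-fold (log2 2.16, SE 0.66, adjusted p = 0.00772), averaging 360 counts. Cdkn2a, which encodes an inhibitor of Mdm2 and one of cyclin-dependent kinases, rose 2.81-fold (log2 1.49, SE 0.44), averaging 29.8 counts. Ppp1r13l, an inhibitor of p53, fell to -0.78 (SE 0.28, adjusted p = 0.0291). The damage kinases Atm (0.35, SE 0.20), Atr (0.17, SE 0.18) and Prkdc (0.21, SE 0.13) were not called.

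Among 18 tested genes of other caspases, caspase inhibitors and death effectors, 1 rose and 2 fell in the authors' deposited table. Cycs, the gene of cytochrome c, which binds Apaf1, fell to -1.05 (SE 0.40, adjusted p = 0.0436). Whether its count includes or loses reads shared with processed copies of the gene was not tested. It lost its call once the length and GC trend was removed (adjusted p = 0.0589) or p was adjusted over every gene with a p (0.063). Tradd, a death receptor adaptor gene, rose 1.57-fold (adjusted p = 0.0367), and Casp12 fell to -3.90 (SE 1.53, adjusted p = 0.0495), averaging 4.2 counts. Tradd and Casp12 lost their calls when p was adjusted over every gene with a p (0.053 and 0.0714), Casp12 also after centring (0.0508) and after removal of the length and GC trend (0.0515). Casp1, an inflammatory caspase, stood at -1.11 (SE 0.58) and was not called.

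Of the apoptosome's parts, Apaf1 was called higher, Casp9 was not called at 0.34, and Cycs was called lower. The other Bcl2 family list had 1 call among 10 tested genes, Vdac2, an outer membrane channel gene that binds Bak1, at -0.39 (SE 0.07, adjusted p = 3.14e-07). In neuronal death signalling 3 of 17 rose and 1 fell in the authors' deposited table. Ngfr, the p75 neurotrophin receptor gene, rose 2.80-fold (log2 1.49, SE 0.39), Foxo1, a transcription factor gene, 2.03-fold (log2 1.02, SE 0.30) and Map2k4, a kinase of the JNK pathway, 1.15-fold (adjusted p = 0.0439; 0.0633 when adjusted over every gene with a p). Ddit3, the gene of the stress factor Chop, fell to -0.75 (SE 0.16, adjusted p = 9.31e-05). Jun stood at -0.10 (SE 0.18), and Mapk8, Mapk9 and Mapk10, the 3 JNK genes, at 0.16, -0.11 and -0.19.

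**Figure D4:**
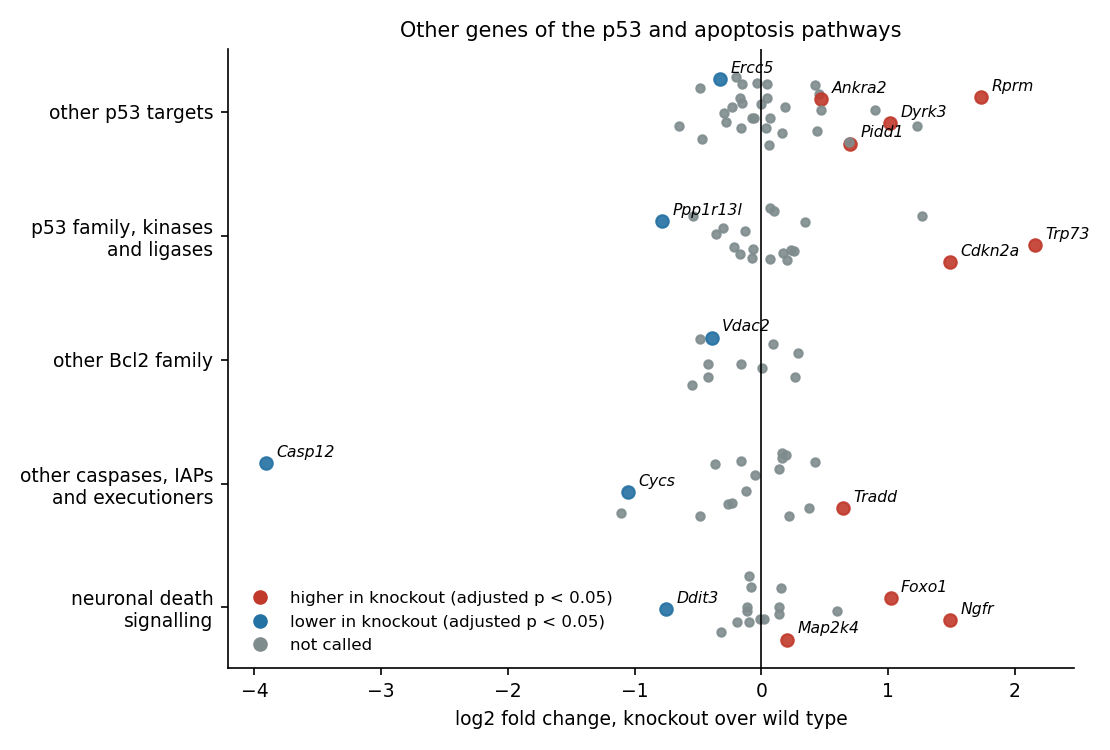
Log2 fold change, knockout over wild type (x axis), of the 99 tested genes in 5 lists of other p53 and apoptosis genes (rows; vertical scatter within a row has no meaning). Named points are the 10 called higher (red) and the 6 called lower (blue), from Casp12 at -3.90 to Trp73 at 2.16.

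Cell type markers were read from the same table. All 10 neuron markers were abundant, with mean normalized counts from 2650 to 90482. Of them Tubb3, Rbfox3 and Slc17a7 rose and Gad1 fell to -1.02 (SE 0.29). Their median was -0.08, with 5 above 0 and 5 below. Gad2 (-1.18, SE 0.49), Syt1 (-0.31, SE 0.13) and Snap25 (-0.23, SE 0.11) were not called but had an unadjusted Wald p under 0.05. Microglia markers fell in 5 of 8 tested cases with a median of -2.55 and summed to a mean count of 616, most of it Cd68. Endothelial and mural markers fell in 3 of 6 (Cldn5, Acta2 and Pdgfrb). Cldn5 averaged only 3.00 counts, next to the lowest count of any tested gene (2.99). Pecam1 (0.27, SE 0.46), Kdr (-1.29, SE 0.76) and Rgs5 (-0.46, SE 0.70) were not called. Astrocyte markers rose in 1 of 8 (Slc1a2) with a median of 0.90, and summed to 15329, of which Slc1a2 alone made up 13490. Of the 8, 7 lay above 0 and 1 below, Sox9 at -0.65 (SE 0.31), which was not called. Oligodendrocyte markers rose in 1 of 7 (Mog) with a median of 0.27. Of the 7, 5 lay above 0 and 2 below, with Pdgfra lowest at -1.35 (SE 0.60, not called). Fibroblast markers rose in 1 of 5 (Dcn) with a median of -0.14. Of the 5, 2 lay above 0 and 3 below, with Col3a1 lowest at -0.96 (SE 0.51, not called). By DESeq2, 0 of 10 markers of dividing cells were called, with 1 at an unadjusted p under 0.05. No marker in these lists had a mean count of 0, but Sox10 (0.294), Tmem119 (1.02), Cdh5 (1.33) and P2ry12 (1.52) were scarce and not tested. In bulk RNA, fewer cells of a type and less RNA per cell cannot be told apart. The part of these cell types in the changes of the p53 and apoptosis genes was not tested.

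**Figure D5:**
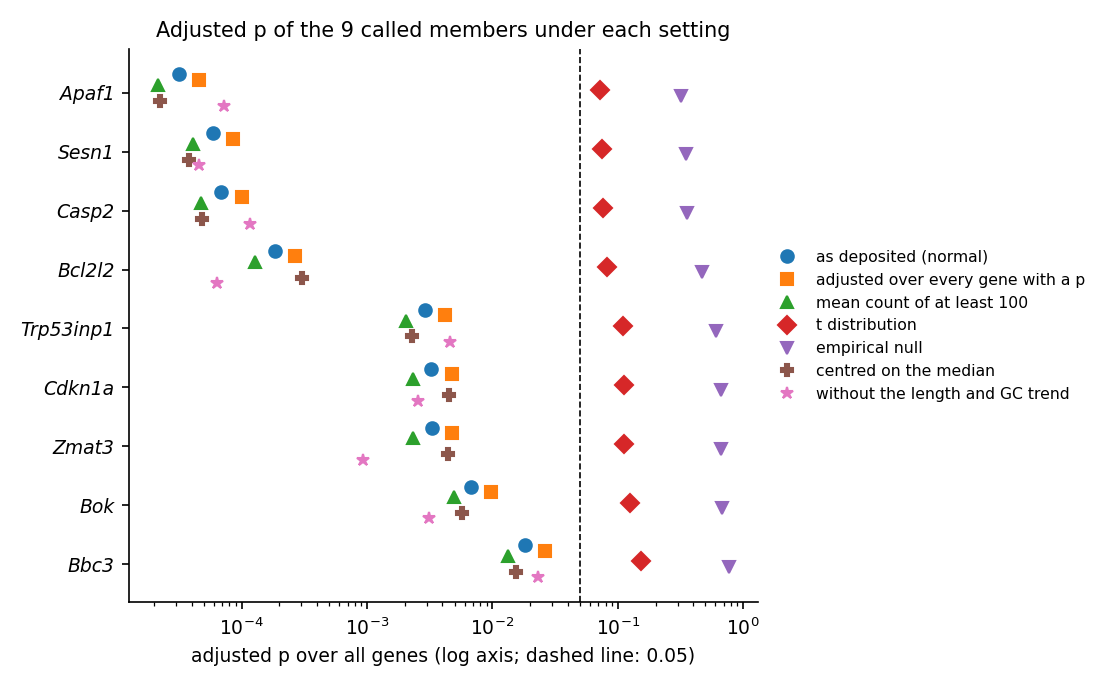
Adjusted p (log x axis) of the 9 called members (rows) under 7 ways of computing it (symbols), with the threshold of 0.05 as a dashed line. Under the t distribution and the empirical null, a normal distribution widened to the spread of all genes, all 9 lie to the right of the line, at 0.0728 or more. Under the other 5 ways all 9 lie to the left.

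The order of the members by evidence was led by Apaf1, Sesn1, Casp2 and Bcl2l2 in the authors' deposited table. With the t distribution these 4 had adjusted p = 0.0728, 0.0745, 0.0757 and 0.0815. With the widened normal they had 0.322, 0.348, 0.355 and 0.469, and were the 4 members with an unadjusted p under 0.05. Since both reuse the deposited statistic, that the same 4 lead again is no separate evidence for them. Rprm kept its call with the widened normal, and among the named pathway genes it was the only one to do so.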

How the data were processed

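RNA of wild-type and knockout cortical neuron cultures was sequenced from polyadenylated RNA with a stranded kit, per the labels' protocols. The submitters' processing notes name mm10, DESeq2 and DESeq. Tool versions, aligner, counting tool and use of strand: not given in the sources used here. The authors deposited 1 table. Its signal column is the mean of the normalized counts, its fold change and standard error are on the log2 scale, its score is the Wald statistic, and it gives a p-value and a Benjamini-Hochberg adjusted p-value, per the file headers and a check of the values. Genes were counted as tested where the adjusted p was given (18085 of 26229 rows). Depth per library is unknown. The p-value weighs the estimated change against its standard error, which rests on the deposited replicates, and is not itself a measure of spread.

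Signs were turned to knockout over wild type by the targeted gene. Intervals are the estimate with its 95% normal bounds. Implied levels per genotype were computed from the mean count and the fold change for 4 libraries in each group. Positions, exon lengths (union of exons) and GC content came from GENCODE M21 (GRCm38, the assembly of mm10), and promoter windows from RefSeq. Members and lists were chosen with earlier results of these data known, and so was the naming rule: every member, the targeted gene, up to 6 called genes of each pathway list and up to 3 of each marker list by smallest adjusted p. Uncalled pathway genes, and the extra motifs, were chosen for naming after values were seen. Alternatives were a stricter threshold, other sets of genes for adjustment, a minimum mean count of 100, 2 other null distributions, centring, removal of a smooth trend over exon length and GC content, and a minimum change of 1.25-fold. A few genes of the other pathway lists are not reported here and are left out of the counts of those lists. Code was tested on simulated data. Python 3.11.15, numpy 2.4.6, scipy 1.17.1, pandas 2.3.3, statsmodels 0.14.6 and matplotlib 3.10.9 were used.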

Additional observations from a re-analysis of the deposited data

How the results depend on the processing

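No paired analysis was possible because the table holds no values per library, and for the same reason no library could be left out. Over all tested genes, 3948 were called as deposited, 2522 at an adjusted p under 0.01, 74 with the empirical null and 1 (H2bc21) with the t distribution of 6 degrees of freedom. The t distribution called 0 members, 0 p53 targets, 0 Bcl2 family genes, 0 caspases and regulators and 0 other pathway genes; the cause was not tested. The empirical null called 0 members, 0 in each of the 3 member groups and 1 other pathway gene. At an adjusted p under 0.01, 8 members kept their call (Bbc3 lost it) and 8 other pathway genes were called in place of 16. Adjustment over every gene with a p, a minimum mean count of 100, centring, removal of the length and GC trend and a minimum fold change each kept the same 9 members. The cutoffs on mean count and on fold change could not have dropped any of them. Their mean counts were at least 339, and the smallest change was 1.41-fold (Cdkn1a). The values of Pmaip1 and Bcl2l11 changed sign without that trend, to log2 0.03 (adjusted p = 0.964) and -0.02 (adjusted p = 0.966). Members under a mean count of 100, Gadd45a, Casp6 and Casp8, have no value under that minimum. Among tested members the standard error ran from 0.08 for Mcl1 to 0.42 for Eda2r. Gadd45a (0.40), Casp6 (0.40) and Hrk (0.41) were close to the latter, Hrk at a mean count of 2435.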

Other observations

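The 8 windows of the genes that rose (Sesn1, Bok, Bbc3, Casp2 and Apaf1) had a median of 30.5 CpG dinucleotides per 300 bases, from 16 for Bok to 46 for Apaf1. The 3 windows of those that fell had a median of 9, with 2 and 23 for Cdkn1a and 9 for Bcl2l2. Windows of members not called had a median of 21, which is also the median over 11686 windows of tested genes with a mean count of at least 100. Trp53inp1 and Zmat3 were not among the windows read. The comparison was made after the calls were known, several windows belong to 1 gene, and it was not tested.

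Several members share exon bases with a neighbour. Diablo shares 1326 bases with B3gnt4 on the other strand and 1193 with Gm49027 on its own, Bid 628 bases with Bcl2l13 on the other strand, and Bad 524 with Gpr137 on the other strand. Among the called members Cdkn1a shares 273 bases with a provisional transcript model on the other strand.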
